A study of Mus musculus with 4 samples.

Results

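The mucin genes analysed here are Muc1, Muc2, Muc4, Muc5ac, Muc5b, Muc6, Muc13 and Muc20, chosen by name as 8 of 21418 autosomal protein-coding genes of the mouse annotation GENCODE M1 (genome build mm9). The libraries were whole genome bisulfite sequencing of colon cells from mice of strain C57, bred by crossing wild-type mice with carriers of Lgr5-EGFP-CreER from a line backcrossed to C57BL/6 J. This allele marks cells with an active Lgr5 promoter by green fluorescence. All 4 groups came from this cross, but the P0 libraries were pooled from several litters and the P21 libraries from offspring with green fluorescence. Whether P0 pups without the allele were left out is not given in the sources read, and the pooling and the age cannot be told apart. Lgr5-EGFP+ intestinal stem cells (ISC) and Lgr5-EGFP-/EpCAM+ cells, called differentiated cells, were sorted at postnatal day 0 (P0) and postnatal day 21 (P21), the beginning and the end of suckling, which gave 1 library for each of the 4 groups. The cells of a library were pooled from several mice, and any stem cell without green fluorescence falls in the differentiated gate. With 1 library a group, every test below compares 2 libraries and not 2 conditions, and every interval covers counting error only. Neighbouring CpGs can be read on the same molecule, yet tests and intervals take each reading as separate. Intervals can therefore be too narrow and p-values too small, by an amount that was not measured. In such bulk libraries a change inside each cell and a change in the makeup of the sorted cells cannot be told apart.

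Mucins are large glycoproteins whose serine- and threonine-rich stretches carry dense O-linked sugar chains. Secreted mucins polymerise into the mucus gel, and membrane-bound mucins line the apical face of epithelial cells. Muc2 is the gel-forming mucin that goblet cells of the colon secrete. Muc1, Muc4, Muc13 and Muc20 are membrane-bound mucins of the intestinal and other epithelia. Muc5ac and Muc6 are the gel-forming mucins of the stomach, and Muc5b is the main mucin of airways and salivary glands. Methylation of CpG sites near a start site is usually low in genes that are in use, while gene bodies are usually highly methylated. The study asked whether DNA methylation changes between stem cells and their progeny and over the suckling period. Here the 5 colonic mucins (Muc1, Muc2, Muc4, Muc13 and Muc20) were set beside the 3 gastric and airway mucins (Muc5ac, Muc5b and Muc6).

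Muc1 lies on the + strand at chr3:89032979-89037303. Muc6 (- strand, chr7:148819871-148841218), Muc2 (+ strand, chr7:148876268-148940595), Muc5ac (+ strand, chr7:148974877-149005136) and Muc5b (+ strand, chr7:149024975-149058990) follow one another on chromosome 7. Muc4 (+ strand, chr16:32735972-32782477) and Muc20 (- strand, chr16:32777505-32797521) face each other on chromosome 16 and overlap at their 3′ ends, so 11 bins belong to both. Muc13 lies on the + strand at chr16:33794123-33820020. Methylation was read in bins of 200 bp from 5000 bp upstream of each gene to its end. To be tested, a bin needed 2 CpGs or more and no fewer than 10 calls in any library, a call being 1 read base at a CpG. Of 748 bins with at least 2 CpGs, 706 were tested (94.4%, against 82.5% of such bins over the autosomes). The 706 are part of 4076373 tested autosomal bins. Median calls a bin were 61 in P0 ISCs, 111.5 in P0 differentiated cells, 64 in P21 ISCs and 91 in P21 differentiated cells. In Muc2, 58.0% of the window is unknown sequence in this build, with a longest gap of 40000 bp, so its central repeat could not be read.

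Upstream sequences and bins that carry the main results are printed here with each CpG in capitals, 5′ to 3′ on the gene's strand, from build mm9. The first set shows the 250 bases before the start sites of Muc2, Muc5b and Muc13, because Muc2, a colonic mucin, and Muc5b, an airway mucin, both hold CpGs of very low level between -100 and -74 from the start, while Muc13 has no CpG in this stretch.
Muc2, chr7:148876018-148876267: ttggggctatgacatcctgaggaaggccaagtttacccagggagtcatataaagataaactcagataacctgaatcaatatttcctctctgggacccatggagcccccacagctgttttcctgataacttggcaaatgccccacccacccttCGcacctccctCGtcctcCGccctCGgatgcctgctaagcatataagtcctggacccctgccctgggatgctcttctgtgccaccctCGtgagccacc
Muc5b, chr7:149024727-149024976: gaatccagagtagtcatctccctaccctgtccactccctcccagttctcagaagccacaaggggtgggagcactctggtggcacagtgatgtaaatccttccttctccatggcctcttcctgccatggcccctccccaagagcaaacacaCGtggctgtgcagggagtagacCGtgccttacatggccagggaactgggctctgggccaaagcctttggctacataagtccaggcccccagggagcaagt
Muc13, chr16:33793873-33794122: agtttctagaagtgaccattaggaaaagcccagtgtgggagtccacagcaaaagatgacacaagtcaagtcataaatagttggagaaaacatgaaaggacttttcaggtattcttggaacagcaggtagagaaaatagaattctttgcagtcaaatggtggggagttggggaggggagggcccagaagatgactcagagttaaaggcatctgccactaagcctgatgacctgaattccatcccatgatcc
The second set shows bins with large losses between P0 and P21 in both populations, from intron 1 of Muc4 and intron 2 of Muc13.
Muc4, chr16:32737001-32737200: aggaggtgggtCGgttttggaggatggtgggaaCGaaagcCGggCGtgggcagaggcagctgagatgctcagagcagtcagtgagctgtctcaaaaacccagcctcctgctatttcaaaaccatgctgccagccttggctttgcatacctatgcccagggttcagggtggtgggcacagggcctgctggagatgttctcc
Muc4, chr16:32738601-32738800: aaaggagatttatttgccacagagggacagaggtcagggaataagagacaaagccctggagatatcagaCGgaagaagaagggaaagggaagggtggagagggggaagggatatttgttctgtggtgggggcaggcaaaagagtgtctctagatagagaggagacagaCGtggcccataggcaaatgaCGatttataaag
Muc13, chr16:33794801-33795000: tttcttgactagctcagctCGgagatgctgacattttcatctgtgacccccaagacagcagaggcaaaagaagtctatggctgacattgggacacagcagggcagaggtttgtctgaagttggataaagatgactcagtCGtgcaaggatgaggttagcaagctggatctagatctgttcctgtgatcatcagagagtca

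The CpGs printed for Muc2 at -98, -87, -80 and -74 from the start were at 0 to 2.63% in all 4 libraries. The CpG at -11 was at 4.35% in P0 ISCs, 22.0% in P0 differentiated cells, 4.55% in P21 ISCs and 0% in P21 differentiated cells. Both CpGs printed for Muc5b, at -100 and -78, were at 0 to 2.94% in all 4 libraries. Their distance from the start was close to that of the 4 low CpGs of Muc2. In Muc5ac, the CpG at -108 was at 6.25% in P0 ISCs, 22.2% in P0 differentiated cells and 0% in both P21 libraries, from 12 to 20 calls each. The CpGs of Muc6 within 250 bases upstream were at 54.2 to 100% in the 4 libraries. Short motifs of intestinal factors, of 5 to 7 bases, were searched on both strands from 250 bases before to 50 after the start of the 8 genes. TTTATG, a Cdx2 motif, was found in 1 of 8, Muc13 at -180, and in 10.6% of all promoters. AGATAA, which GATA factors bind, was found in 2 of 8, Muc2 at -198 and -188 and Muc4 at 7 and 31, and in 10.02% of all promoters. GTAAACA, a Foxa motif, was found in 2 of 8, Muc5ac and Muc20, and in 2.97% of all promoters. CACCC, a Klf motif, was found in 6 of 8 and in 58.1% of all promoters, and its matches at -109 and -105 in Muc2 overlap each other.

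The promoter level of a gene, the mean of its bins centred within 1000 bp of the start, ran from 16.2% in Muc1 to 84.2% in Muc6 across the libraries. Levels are given ± the margin of a 95% counting interval. Muc1, with 46 CpGs in that window, was lowest at P0, at 17.3% ± 2.44 in ISCs and 16.2% ± 2.0 in differentiated cells. At P21 it was at 22.9% ± 2.67 in ISCs and 22.8% ± 2.33 in differentiated cells, above both P0 values. Muc13 was at 36.4% ± 3.85 in P0 ISCs and 34.6% ± 3.16 in P0 differentiated cells. At P21 Muc13 was at 18.9% ± 2.16 in ISCs and 17.5% ± 1.97 in differentiated cells, so that it had become the lowest of the 8. Muc2 was at 51.1% ± 3.40 and 50.7% ± 2.08 at P0, and at 42.2% ± 3.10 and 42.0% ± 2.27 at P21, in ISCs and differentiated cells in that order. In both genes the P21 libraries lay below the P0 libraries, and at each age the populations were within each other's intervals. Muc4 stayed between 61.6% and 66.6% in the 4 libraries. Muc20 was at 68.0% ± 4.62 in P0 ISCs, 75.1% ± 5.01 in P0 differentiated cells, 75.6% ± 4.09 in P21 ISCs and 81.3% ± 4.67 in P21 differentiated cells.

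Among the gastric and airway mucins, Muc5b was at 68.7 to 71.5% in the 4 libraries despite the unmethylated CpGs at its start. Muc6 was at 83.8% ± 6.87 in P0 ISCs and 75.3% ± 5.36 in P0 differentiated cells. At P21 Muc6 was at 75.03% ± 7.54 in ISCs and 84.2% ± 5.83 in differentiated cells, so the order of the populations turned, within wide intervals. Muc5ac was at 66.1% ± 6.95 in P0 ISCs and between 80.5% and 83.3% in the other libraries, from 3 bins with 128 calls in P0 ISCs. The mean over the 5 colonic promoters minus that over the 3 gastric and airway promoters was -32.5 to -26.1 points in the 4 libraries, as 47.7% against 73.8% in P0 ISCs. Within 500 bp of the start the difference was smaller, at -13.2 points in P0 ISCs and -14.3 points in P21 ISCs, and at -23.6 and -23.3 points in P0 and P21 differentiated cells. The ranges overlapped, because Muc20 at 68.0% in P0 ISCs exceeded Muc5ac and at 75.6% in P21 ISCs exceeded Muc5b and Muc6. Of the colonic genes, Muc20 and Muc4 had mean promoter levels in or near the gastric range and Muc1, Muc2 and Muc13 stood below it. The Muc4 mean, from 3 bins that hold 10 of the 15 CpGs in its window, joined unlike parts. Its CpGs upstream of the start were at 77.8 to 100% in the 4 libraries. Those past the start, at 154, 329, 420 and 735, were all under 30% in every library. The CpG at 735 was at 1.08 to 9.86%, from 71 to 100 calls.

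**Figure D1:**
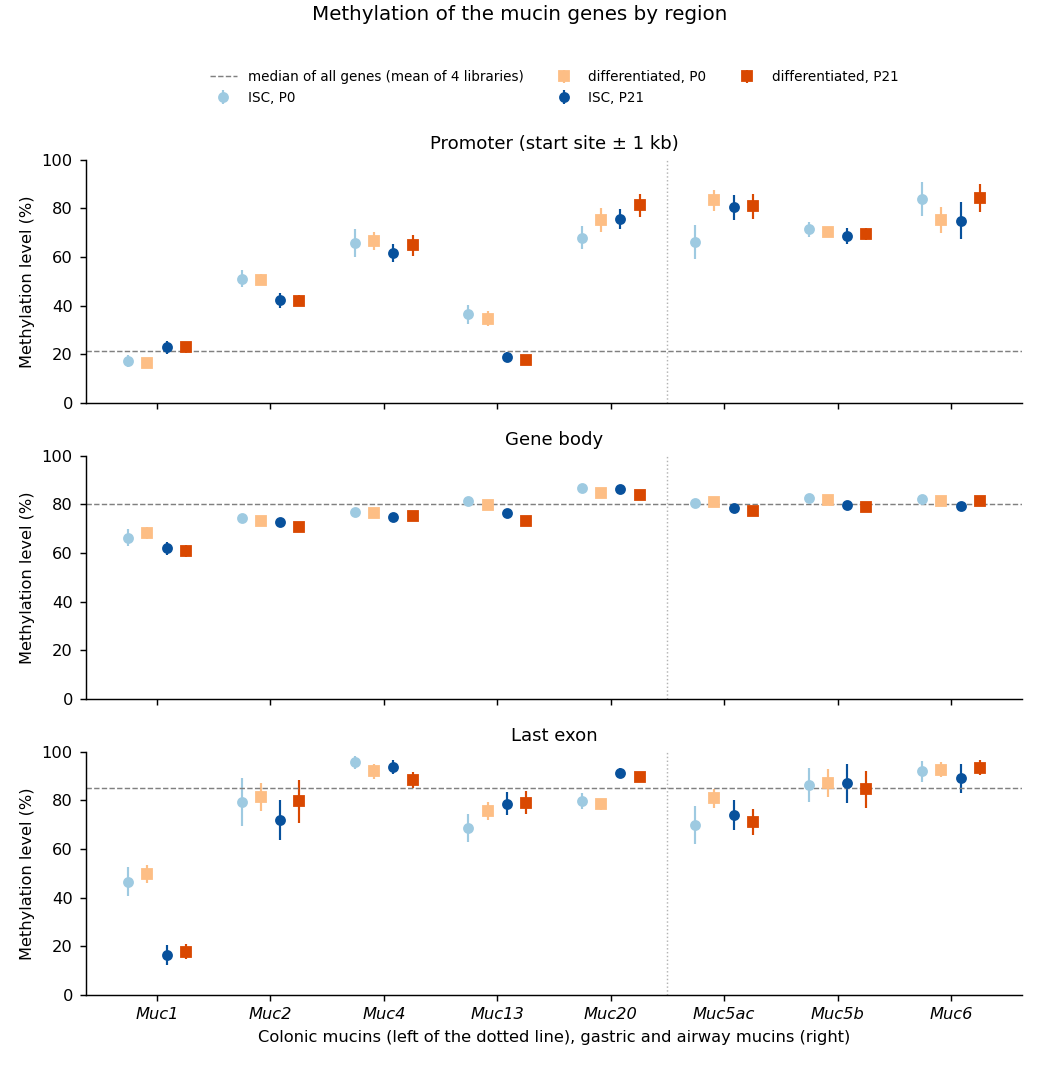
Methylation level (%) of promoter, gene body and last exon of the 8 mucin genes in the 4 libraries. Points are means over bins, bars are 95% counting intervals and the dashed line is the median of all genes averaged over libraries. The P21 libraries sit below the P0 libraries in the promoters of Muc2 and Muc13 and in the last exon of Muc1, and above them in the last exon of Muc20.

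Promoter levels fall with the number of CpGs, so each gene was set beside genes whose window holds a number of CpGs within 5 of its own. Muc13, with 22 CpGs, averaged 26.8% over the libraries against a median of 76.4% in 2409 such genes, of which 5.94% were lower. Muc2, with 33 CpGs, averaged 46.5% against 68.1%, and 29.9% of 1765 genes were lower. Muc1 averaged 19.8% against 33.5%, and 26.5% of 1210 genes were lower. Muc4 averaged 64.7% against 80.4%, with 19.8% of genes lower. Muc5ac, Muc5b, Muc6 and Muc20 stood near the middle, with 41.4%, 43.8%, 46.9% and 50.6% of such genes lower. Muc13 was thus the member whose promoter stood farthest below that of genes of like CpG number.

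Promoter change with age was tested by the Mantel-Haenszel chi-square test on calls stratified by bin, adjusted over all 20520 genes measured, and called at an adjusted p under 0.05 with a difference of more than 5 points. Between P0 and P21, ISCs had 2 of 8 promoters higher (Muc1 and Muc5ac) and 2 lower (Muc2 and Muc13), against 5.03% of all promoters higher and 4.96% lower. Differentiated cells had 1 of 8 higher (Muc1) and 2 lower (Muc2 and Muc13), against 4.34% and 5.52%. Muc13 fell by 17.6 points in ISCs (chi-square adjusted p = 3.46e-10) and by 17.2 points in differentiated cells (chi-square adjusted p = 5.63e-17). This loss came from the outer bins of the window. With a window of 500 bp on either side the difference was -0.53 points in ISCs (chi-square adjusted p = 0.925) and 0.24 points in differentiated cells (chi-square adjusted p = 0.883). Muc2 fell by 8.94 points in ISCs (chi-square adjusted p = 2.28e-06) and by 8.78 points in differentiated cells (chi-square adjusted p = 2.06e-06). Muc1 rose by 5.62 points in ISCs (chi-square adjusted p = 0.00724) and by 6.58 points in differentiated cells (chi-square adjusted p = 9.90e-06). The Muc1 call in ISCs was lost with pooled calls, at 4.64 points, and that in differentiated cells with bins shifted by 100 bp, at 3.81 points. Muc5ac rose by 14.5 points in ISCs (chi-square adjusted p = 0.0124), while in differentiated cells it differed by -2.42 points (chi-square adjusted p = 0.652). The Muc5ac call was lost with pooled calls, at 9.32 points (Fisher's exact test, adjusted p = 0.270), and within 500 bp, where 18.4 points gave a chi-square adjusted p of 0.264.

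**Figure D2:**
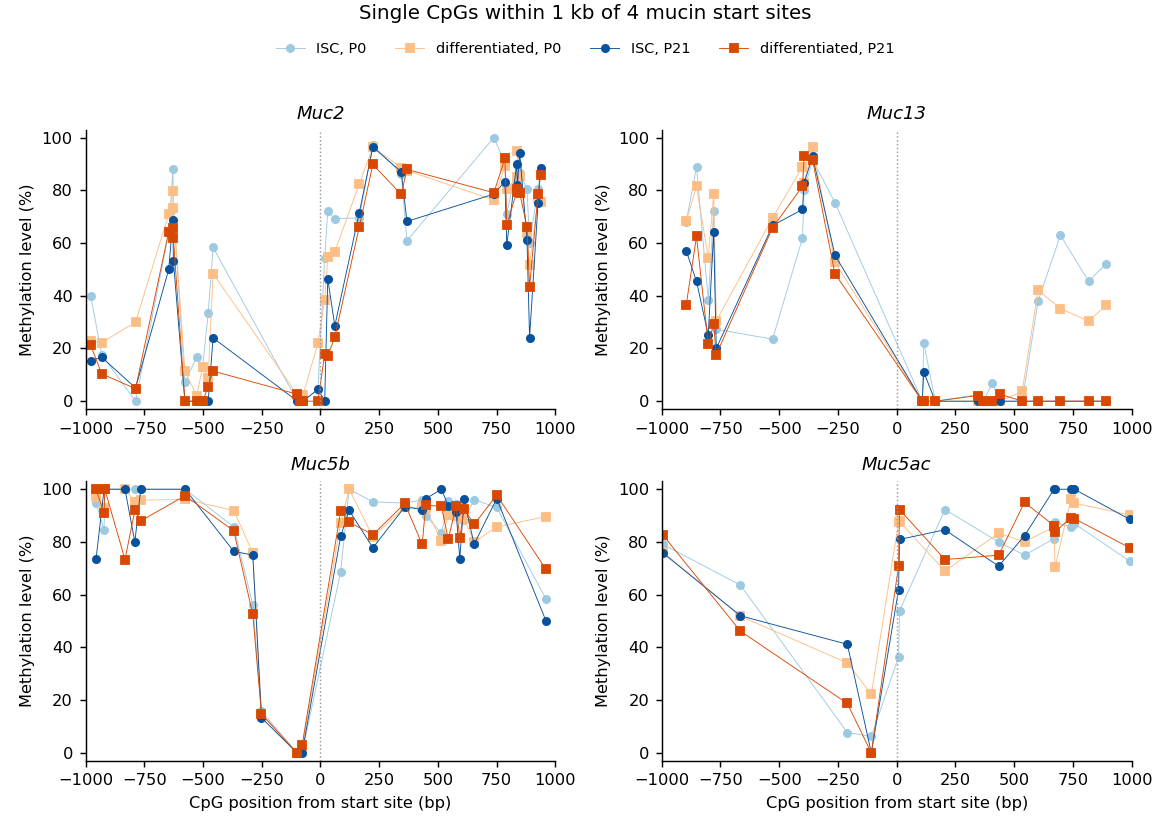
Methylation level (%) of single CpGs with at least 5 calls within 1000 bp of the start sites of Muc2, Muc13, Muc5b and Muc5ac, by distance in bp and library. In Muc2 and Muc5b the CpGs between -100 and -74 sit at or near 0 in all 4 libraries, the Muc2 CpG at -11 is at 22.0% in P0 differentiated cells, and in Muc13 the CpGs past 600 bp are at 0 at P21 only.

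Single bins gave the place of these changes. Calls of a bin were compared by Fisher's exact test (two-sided), and it was called with an exact adjusted p under 0.05 over all 4076373 bins and a difference of more than 15 points. In ISCs between P0 and P21, 9 of 706 mucin bins gained methylation (1.27%, against 1.07% of all bins) and 33 lost it (4.67%, against 1.48%). In differentiated cells 7 gained (0.992%, where the share of all bins was also 0.992%) and 36 lost (5.10%, against 1.86%). The share of gains was near the background, and the share of losses was above it in both populations. Mucin bins were deeper than the bins they stand beside, whose median calls were 55 to 81 in the 4 libraries against 61 to 111.5, and the part of depth in the called shares was not tested. With a difference of more than 15 points and no test, 15.7% of mucin bins and 13.5% of all bins changed in ISCs, and 13.6% and 12.0% in differentiated cells. The median difference over the mucin bins was -0.49 points in ISCs and -0.29 points in differentiated cells, against 0 and -0.07 over all bins. Because the libraries differ in depth, the calls of each bin were also thinned to those of its shallowest library. Of 92 calls of mucin bins over the 4 comparisons, 38 were then lost and 92 had the same direction. Thinning drew once at random from the very calls that made these bins called. The direction could thus hardly change, and an adjusted p near 0.05 could move with another draw. Losses were called in 7 of the 8 genes in each population, all but Muc20, in unequal numbers. Muc4 held 15 of the 33 losses in ISCs and 12 of the 36 in differentiated cells, and Muc13 held 6 and 13. Muc1 held 4 and 5, Muc2 held 5 and 2, and Muc5ac, Muc5b and Muc6 held 1 or 2 each. The colonic mucins held 30 losses in ISCs and 32 in differentiated cells among 417 bins (7.19% and 7.67%), and the gastric and airway mucins 3 and 4 among 289 bins (1.04% and 1.38%).

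Of the mucin bins called with age, 18 were called in the same direction in both populations, 42.9% of those called in ISCs and 41.9% of those called in differentiated cells, and 0 in opposite directions. The 2 age comparisons share no library, but the paper pooled mice at each age and sorted both populations. The populations of an age can thus come from the same animals. Calls shared between them do not separate age from pool. Over all bins the shares were 36.3% and 32.5%. Of the 42 bins called in ISCs, 40 had the same sign in differentiated cells (95.2%, against 84.2% over all bins).

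**Figure D3:**
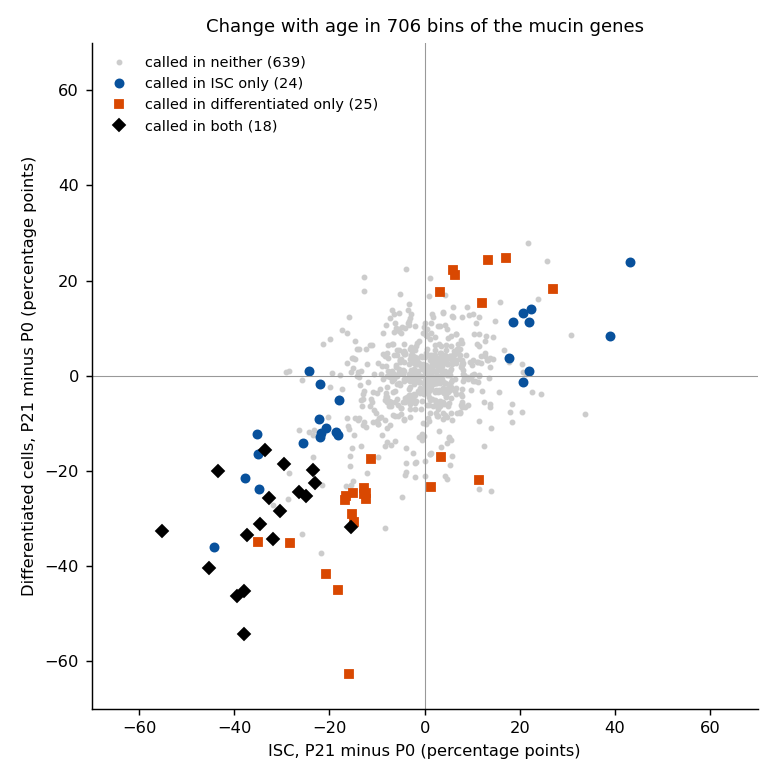
Difference P21 minus P0 (percentage points) of each of the 706 mucin bins in ISCs (horizontal axis) and in differentiated cells (vertical axis), marked by where the bin was called. All 18 bins called in both populations lie at lower left, as losses in both.

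**Figure D4:**
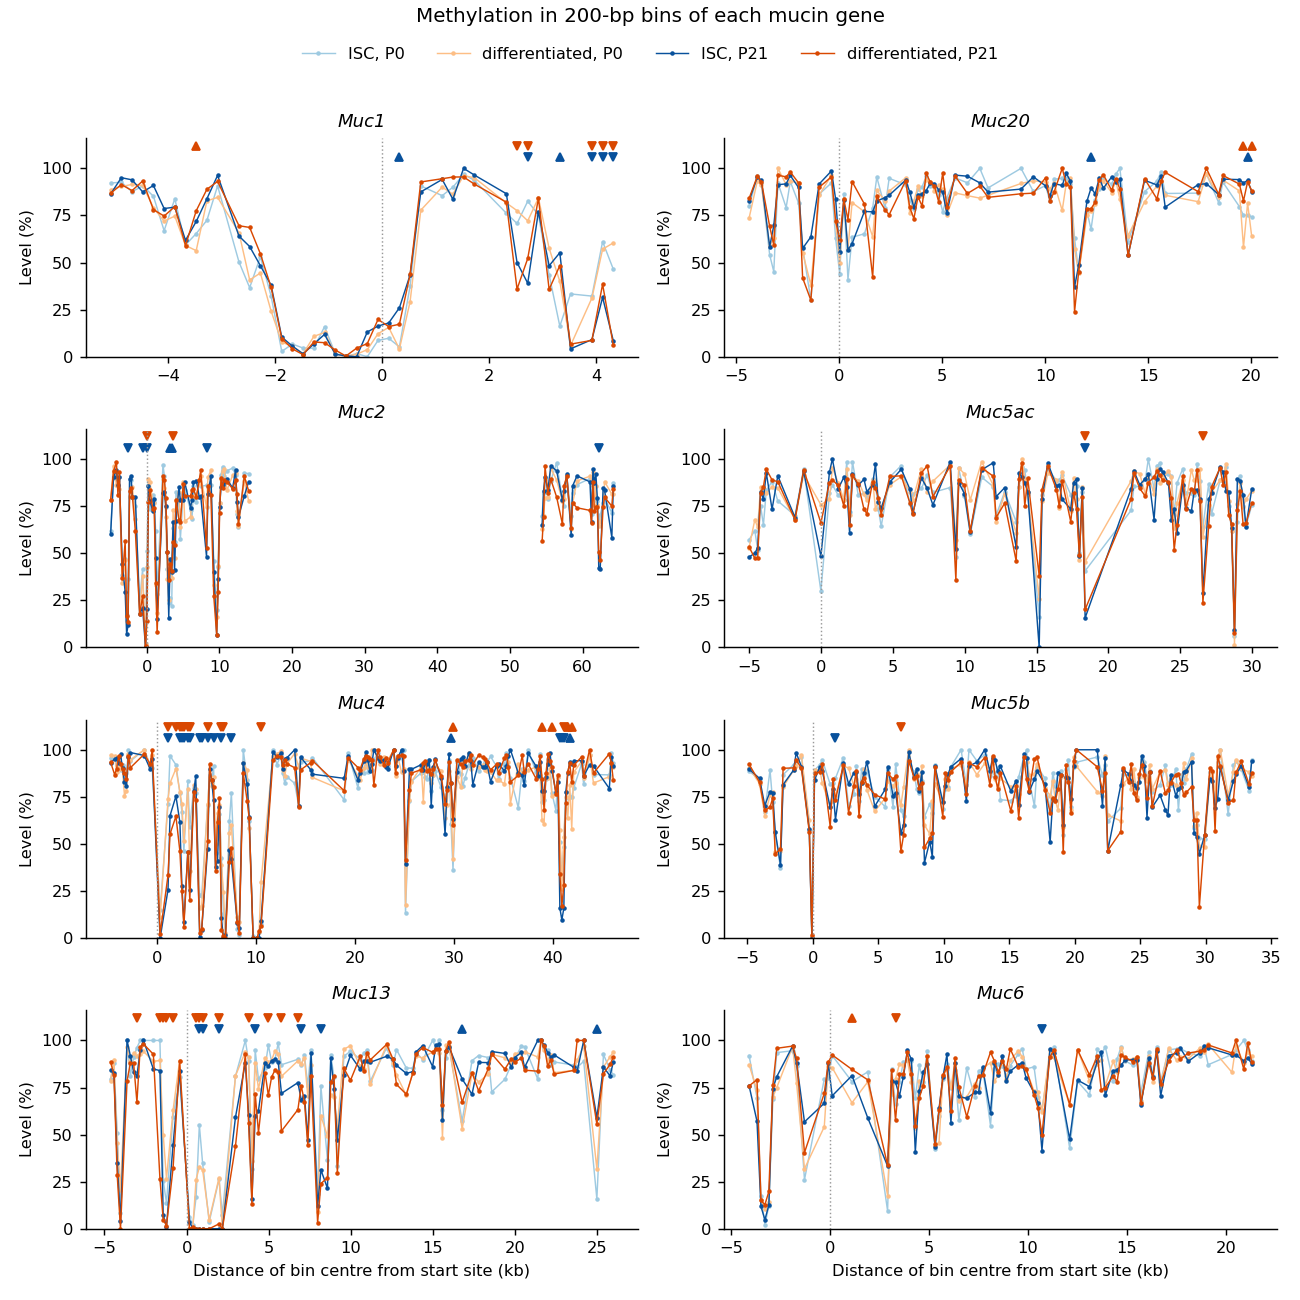
Methylation level (%) of every tested bin of each mucin gene by distance from the start site (kb) in the 4 libraries. Triangles above 100% mark bins called between P0 and P21 (blue for ISC, orange for differentiated cells, pointing up for gains and down for losses); no line is drawn across the gap in Muc2. Losses crowd the start of Muc4, where 12 bins of intron 1 were called in ISCs, and both sides of the start of Muc13.

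Muc4, a large membrane-bound mucin, lost methylation in its intron 1. Over 40 bins the intron averaged 59.6% ± 1.32 in P0 ISCs and 60.03% ± 1.11 in P0 differentiated cells, and 49.6% ± 1.24 and 48.3% ± 1.09 at P21. Both P21 libraries lay below both P0 libraries. In this intron 12 bins lost methylation in ISCs and 11 in differentiated cells, with 0 gains in either. The bin at chr16:32737001-32737200, printed above, was at 71.1% of 322 calls in P0 ISCs and 73.7% of 300 calls in P0 differentiated cells. At P21 it was at 25.8% of 260 calls and 33.3% of 258 calls, so that it fell by 45.3 and by 40.3 points (exact adjusted p = 1.76e-24 and 8.18e-19). Its 4 CpGs did not move alike: the CpG at 1062 from the start went from 89.7% to 14.1% in ISCs, and that at 1073 from 83.6% to 45.3%. The bin at chr16:32738401-32738600 fell by 39.4 points in ISCs (exact adjusted p = 2.61e-07) and by 46.2 points in differentiated cells (exact adjusted p = 3.25e-12). The next bin, chr16:32738601-32738800, was at 46.3% in P0 ISCs and 51.3% in P0 differentiated cells and at 8.30% and 6.04% at P21, a loss called in both (exact adjusted p = 2.95e-19 and 6.59e-44). Its CpGs printed above ended between 4.67% and 9.86% at P21.

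The same intron of Muc4 held 4 runs of 2 or more bins with a level under 30% in all 4 libraries. The run at chr16:32740201-32740600 had a mean of 22.7% in P0 ISCs and 16.5% in P0 differentiated cells, and of 2.56% and 3.76% at P21. The run at chr16:32742601-32743000 had a mean of 7.34% and 13.8% at P0, and of 0.758% and 0.610% at P21. Those at chr16:32744001-32744400 and chr16:32745601-32746600 had means between 2.24% and 9.97% in every library. One bin of the last run, chr16:32746401-32746600, was at 29.8% in P0 differentiated cells and 6.50 to 8.97% in the others, and was called with age in differentiated cells (exact adjusted p = 4.63e-04, and 0.0553 with thinned calls) and between populations at P0 (exact adjusted p = 0.0275, and 0.114 with thinned calls). These runs lay from 4229 to 10628 bp past the start, downstream of the promoter window. Inside that window a single bin over exon 1, from 229 to 428 bp past the start, was at 14.7% in P0 ISCs, 11.1% in P0 differentiated cells, 0% in P21 ISCs and 2.17% in P21 differentiated cells. Farther along, Muc4 gained methylation in single bins and lost it in others. The bin at chr16:32774801-32775000, over exon 20, rose by 22.2 points in differentiated cells (exact adjusted p = 1.59e-04) and differed by 5.87 points in ISCs (exact adjusted p = 0.934). That at chr16:32765601-32765800, over exon 11, rose by 22.0 points in ISCs (exact adjusted p = 0.0474, and 0.0702 with thinned calls). Bins at chr16:32776801-32777000 and chr16:32777001-32777200, over exon 22, went from 31.9% to 9.68% and from 48.5% to 15.8% in ISCs (exact adjusted p = 0.00459 and 0.0203). In differentiated cells the first differed by -9.10 points (exact adjusted p = 0.0903) and the second fell by 25.7 points (exact adjusted p = 0.0228, and 0.935 with thinned calls). These bins were named after their values were seen.

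Muc20, the neighbour of Muc4, gained methylation in its last exon. Its level there was 79.7% ± 3.22 in P0 ISCs and 78.4% ± 2.29 in P0 differentiated cells, and 91.3% ± 2.20 and 89.6% ± 1.96 at P21. The gain was 11.6 points in ISCs (chi-square adjusted p = 1.71e-07) and 11.2 points in differentiated cells (chi-square adjusted p = 6.03e-11). Of the bins in it, chr16:32777401-32777600 was at 74.2% of 190 calls in P0 ISCs and 63.8% of 329 calls in P0 differentiated cells, and at 87.6% of 177 and 88.2% of 228 calls at P21. The gain of that bin was called in differentiated cells (24.3 points, exact adjusted p = 1.46e-08) and was 13.4 points in ISCs (exact adjusted p = 0.0494), under the limit of 15. The bin at chr16:32777801-32778000 rose by 24.7 points in differentiated cells (exact adjusted p = 0.0142, and 0.152 with thinned calls). Between them, chr16:32777601-32777800 rose by 18.5 points in ISCs (exact adjusted p = 7.09e-04). Bins of this exon also lie over introns and exons of Muc4 on the other strand, and bisulfite levels summed over strands cannot assign them to either gene. Outside this exon, chr16:32785201-32785400 in intron 3 rose by 21.9 points in ISCs (exact adjusted p = 2.02e-07, and 2.50e-06 with thinned calls). In differentiated cells that bin differed by 0.987 points. It was named after its values were seen. No bin of Muc20 was under 30% in all 4 libraries.

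Muc13, a membrane-bound mucin abundant in the intestine, lost methylation past its start in both populations. Upstream of the start 5 of 16 bins were called as losses in differentiated cells, 2 of which were lost with thinned calls, and 0 of 16 in ISCs. In ISCs those 5 bins differed by -18.3 to -12.7 points, and the mean of the 16 upstream bins went from 73.4% ± 2.07 to 66.4% ± 2.22. The body averaged 81.5% ± 1.18 in P0 ISCs and 79.7% ± 1.08 in P0 differentiated cells, and 76.4% ± 1.17 and 73.4% ± 1.17 at P21. It fell by 5.12 points in ISCs (chi-square adjusted p = 8.82e-08) and by 6.33 points in differentiated cells (chi-square adjusted p = 6.18e-21). The call in ISCs was lost with pooled calls, at -3.65 points, and with bins shifted by 100 bp, at -4.29 points. Most of it lay in the 5′ introns. Intron 2 went from 57.4% ± 2.91 to 36.2% ± 2.83 in ISCs and from 54.3% ± 2.85 to 34.5% ± 2.75 in differentiated cells. Intron 3 went from 75.01% ± 3.24 to 58.5% ± 3.59 and from 69.4% ± 3.40 to 51.6% ± 3.99. Introns 7 and 12 were between 88.1% and 91.5% in every library. The bin at chr16:33794801-33795000, printed above, was at 55.1% of 49 calls in P0 ISCs and 32.7% of 153 calls in P0 differentiated cells. At P21 it was at 0 of 89 calls and 0 of 117 calls, with upper 95% Wilson limits of 4.14% and 3.18%. The loss was called in both (exact adjusted p = 1.57e-12 and 4.44e-12).

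Upstream of Muc13, the bin at chr16:33792401-33792600 was at 100% of 24 calls in P0 ISCs, 89.4% of 47 in P0 differentiated cells, 84.0% of 25 in P21 ISCs and 26.7% of 30 in P21 differentiated cells. The last library stood apart, and the bin was called both with age in differentiated cells (exact adjusted p = 3.61e-06) and between populations at P21 (exact adjusted p = 0.0248, and 0.309 with thinned calls). The next bin, chr16:33792601-33792800, was at 25.6%, 23 of 46 calls, 7.32% and 4.88% in the same order and was called with age in differentiated cells (exact adjusted p = 7.92e-07). Past the start, 3 bins at chr16:33794201-33794800 formed a run under 30% in all libraries, at 8.39% and 8.72% at P0 and at 1.26% and 0.377% at P21 in ISCs and differentiated cells. The start of a second transcript, 330 bp into the gene, lies in this run. The antisense transcript Gm15657, chr16:33786438-33796960, covers this run, all upstream bins and the part of intron 2 before its own start. Levels there cannot be assigned to either gene. A run of 2 bins in intron 2, chr16:33796001-33796400, was at 16.9% and 13.6% at P0 and at 0% and 1.32% at P21. The mean of the last exon of Muc13 went the other way. It was at 68.6% ± 5.69 in P0 ISCs and 75.6% ± 3.84 in P0 differentiated cells, and at 78.6% ± 4.77 and 79.0% ± 4.75 at P21, a gain called in ISCs (9.99 points, chi-square adjusted p = 5.24e-04) and of 3.40 points in differentiated cells (chi-square adjusted p = 0.501). The only called bin of this exon, chr16:33819001-33819200, started from 15.8% in P0 ISCs. It rose by 43.3 points in ISCs (exact adjusted p = 8.57e-08, and 4.28e-05 with thinned calls). In differentiated cells that bin differed by 23.8 points (exact adjusted p = 0.0747). The gain of the exon in ISCs thus rested on that 1 of its 4 bins, which was named after its values were seen. The other bins of the exon did not rise on average in ISCs.

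Muc1, a membrane-bound mucin of glandular epithelia, is short and lies beside a long unmethylated stretch. A run of 12 bins, from -1978 to 421 of its start and 8 of them in a CpG island, had a mean level of 5.14% in P0 ISCs and 6.43% in P0 differentiated cells, and of 9.26% and 8.22% at P21. The run also covers the start of the microRNA Mir92b and reaches that of Mtx1, both transcribed on the other strand. The last exon of Muc1 had the largest change of any region of the 8 genes. It was at 46.6% ± 5.91 in P0 ISCs and 49.6% ± 3.67 in P0 differentiated cells, and at 16.4% ± 4.01 and 17.8% ± 3.11 at P21. It fell by 30.2 points in ISCs (chi-square adjusted p = 2.89e-18) and by 31.8 points in differentiated cells (chi-square adjusted p = 1.14e-42). In the last of its bins, chr3:89037201-89037400, the level was 46.5% of 170 calls in P0 ISCs and 60.4% of 359 calls in P0 differentiated cells, and 8.47% of 177 and 6.14% of 277 calls at P21 (exact adjusted p = 5.09e-13 and 7.69e-47). All 4 CpGs of that bin lie past the annotated end of the gene. Without it, a choice made after seeing the data, the exon fell by 26.3 points in ISCs (chi-square adjusted p = 1.07e-05) and fell by 20.5 points in differentiated cells (chi-square adjusted p = 2.67e-07), from 2 bins. The other 2 bins of the exon were also called as losses in both populations, but for chr3:89037001-89037200 both calls were lost with thinned calls (exact adjusted p = 0.190 in ISCs and 1 in differentiated cells). The bin at chr3:89035601-89035800, over exon 5, fell by 43.5 points in ISCs (exact adjusted p = 1.92e-06) and fell by 19.97 points in differentiated cells (exact adjusted p = 0.0352, and 0.287 with thinned calls). The bin before it, chr3:89035401-89035600, fell by 41.7 points in differentiated cells (exact adjusted p = 4.23e-04, and 0.0774 with thinned calls) and differed by -20.7 points in ISCs (exact adjusted p = 0.417). The Muc1 window also had gains, named after their values were seen. In intron 6, chr3:89036201-89036400 rose by 39.01 points in ISCs (exact adjusted p = 0.00922) and differed by 8.39 points in differentiated cells (exact adjusted p = 0.875). In intron 1, chr3:89033201-89033400 rose by 20.8 points in ISCs (exact adjusted p = 0.0271). In differentiated cells that bin was 13.2 points higher (exact adjusted p = 0.0108), under the limit of 15. Upstream, chr3:89029401-89029600 rose by 21.2 points in differentiated cells (exact adjusted p = 0.00303, and 0.0840 with thinned calls) and differed by 6.41 points in ISCs (exact adjusted p = 0.940). The upstream bin lies inside the genes Mtx1 and Thbs3, so its gain cannot be assigned to Muc1. The body of Muc1 was at 66.3% and 68.1% at P0 and at 62.0% and 60.9% at P21, and in differentiated cells it fell by 7.25 points (called, chi-square adjusted p = 2.53e-05).

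In Muc2, the bin over the start, chr7:148876201-148876400, was at 51.0% of 98 calls in P0 ISCs and 42.6% of 169 calls in P0 differentiated cells. At P21 it was at 20.6% of 107 and 14.2% of 169 calls, a loss called in both (exact adjusted p = 6.42e-04 and 1.55e-06). All 3 CpGs of the bin past the start were lower at P21 in both populations, and in differentiated cells the CpG at -11 was lower as well, as given above. The CpG at 18 went from 54.2% to 0% in ISCs and from 38.3% to 17.8% in differentiated cells. The CpG at 31 went from 72.0% to 46.4% and from 54.5% to 17.1%. The CpG at 61 went from 69.2% to 28.6% and from 56.8% to 24.3%. The bin at chr7:148884401-148884600, over exon 20, fell by 37.8 points in ISCs (exact adjusted p = 0.00199) and differed by -21.4 points in differentiated cells (exact adjusted p = 0.0788). The bin at chr7:148938401-148938600, over exon 44, fell by 25.7 points in ISCs (exact adjusted p = 0.0115) and differed by -14.2 points in differentiated cells (exact adjusted p = 0.293). The 5 low bins of Muc2 stood singly. A CpG island over exons 5 to 7 gave the only gains of Muc2, and is named here after its values were seen. Its bin of 18 CpGs, chr7:148879401-148879600, was at 26.5% of 253 calls in P0 ISCs, and at 45.7% of 945 calls in P0 differentiated cells, 47.1% of 289 in P21 ISCs and 44.4% of 543 in P21 differentiated cells. The library of P0 ISCs alone was low there. Its rise with age in ISCs (exact adjusted p = 1.43e-04) and its difference between populations at P0 (exact adjusted p = 1.03e-04) were called and held with thinned calls. The other gain, chr7:148879601-148879800, was of 17.8 points in ISCs (exact adjusted p = 0.0305, and 0.174 with thinned calls). In the same island, chr7:148879801-148880000 went from 72.8% to 55.7% in differentiated cells (exact adjusted p = 0.0300, and 1 with thinned calls).

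The gastric and airway mucins held few called bins. In Muc5ac, the bin over the start, chr7:148974801-148975000, was at 12 of 40 calls in P0 ISCs, 75.8% of 99 in P0 differentiated cells, 48.4% of 62 in P21 ISCs and 66.1% of 62 in P21 differentiated cells. It was called between the populations at P0 (45.8 points, exact adjusted p = 0.00129, and 0.0739 with thinned calls). Its low CpG at -108 gave 16 of the 40 calls in P0 ISCs and 18 of the 99 in P0 differentiated cells, which widens that difference. The CpGs at 8 and 12 were at 36.4% and 53.8% in P0 ISCs, from 11 and 13 calls, and at 87.5% and 87.8% in P0 differentiated cells. The bin at chr7:148990001-148990200 was called between the populations at P21 (0% of 45 calls against 38.1% of 21, exact adjusted p = 0.0266, and 0.465 with thinned calls). The bin at chr7:149001401-149001600 fell by 35.0 points in differentiated cells (exact adjusted p = 3.54e-04, and 0.354 with thinned calls) and differed by -34.9 points in ISCs (exact adjusted p = 0.109). The 1 gastric or airway bin called with age in both populations, chr7:148993201-148993400 over exon 31 of Muc5ac, fell by 24.96 points in ISCs (exact adjusted p = 0.0147) and fell by 25.3 points in differentiated cells (exact adjusted p = 1.16e-04). Both of these calls held with thinned calls, at an exact adjusted p = 0.0329 and 0.0138. That bin was named after its values were seen. The last exon of Muc5ac went from 80.9% ± 3.97 to 71.2% ± 5.43 in differentiated cells (chi-square adjusted p = 0.0230), a call lost with bins shifted by 100 bp, at -7.53 points. In ISCs this exon was at 69.9% ± 7.99 at P0 and 74.0% ± 6.33 at P21, a difference of 4.15 points (chi-square adjusted p = 0.692). In Muc5b, the bin at chr7:149031601-149031800 fell by 24.6 points in differentiated cells (exact adjusted p = 0.00246) and that at chr7:149026601-149026800 by 21.9 points in ISCs (exact adjusted p = 0.0316). In Muc6, the bin at chr7:148837801-148838000 fell by 21.9 points in differentiated cells (exact adjusted p = 1.37e-05), chr7:148830401-148830600 by 21.7 points in ISCs (exact adjusted p = 0.0475), and chr7:148840001-148840200 rose by 17.7 points in differentiated cells (exact adjusted p = 0.0484). In the other population the Muc5b bins differed by -12.2 and -1.71 points and the Muc6 bins by 11.4, -12.1 and 3.23 points, in the order given, with no call. None of these calls in Muc5b and Muc6 held with thinned calls, where the exact adjusted p was 0.594 and 0.0889 in Muc5b and 0.147, 0.223 and 1 in Muc6, in the order given. A run of 3 low bins lay upstream of Muc6, from -3581 to -2982, at 9.76 to 15.9% in the 4 libraries. The longest low stretch of Muc5ac was the bin at chr7:149003601-149003800, at 1.54 to 9.38%, and that of Muc5b was the bin over its start.

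Of the 706 mucin bins, 42 were under 30% in all 4 libraries (5.95%, against 6.32% of all bins). Muc1 held 12, Muc4 11, Muc13 9, Muc2 5, Muc6 3, Muc5ac 1, Muc5b 1 and Muc20 none. Bins low in both P21 libraries but in neither P0 library numbered 5 in Muc4, 4 in Muc13, 2 each in Muc1, Muc2 and Muc5ac and 0 in the others, and made up 0.706% of all bins. The reverse, low in both P0 libraries and in neither P21 library, held for 1 bin in Muc4 and 1 in Muc6, against 0.281% of all bins.

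Over bodies, 1 of 8 mucin genes was lower at P21 in ISCs (Muc13) and 2 in differentiated cells (Muc1 and Muc13), against 4.69% and 5.02% of 17541 genes, and 0 were higher, against 2.78% and 2.63%. Over last exons, 1 was lower in ISCs (Muc1) and 2 in differentiated cells (Muc1 and Muc5ac), against 4.39% and 5.28% of 19284 genes. In the same region 2 were higher in ISCs (Muc13 and Muc20) and 1 in differentiated cells (Muc20), against 5.54% and 5.27%. Bodies of Muc2, Muc4, Muc5ac, Muc5b, Muc6 and Muc20 were between 70.6% and 86.7% in every library and moved by less than 5 points with age. Last exons of Muc2, Muc4, Muc5b and Muc6 were between 72.1% and 95.6%, with no call.

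Differentiated cells and ISCs of the same age differed in few mucin bins. At P0, 3 of 706 bins were higher in differentiated cells and 1 lower, against 0.288% and 0.22% of all bins. At P21, 2 were higher and 1 lower, against 0.0711% and 0.111%. With thinned calls 1 of the 4 calls at P0 was kept and 0 of the 3 at P21. The call at P21 in Muc20, chr16:32796801-32797000 in intron 1, was at 30 of 50 calls in ISCs against 93.0% of 57 calls in differentiated cells (exact adjusted p = 0.0325, and 1 with thinned calls). Its CpG at 528 from the start, at 10.5% in ISCs and 0% in differentiated cells, gave 19 calls in ISCs and 4 in differentiated cells. The CpGs at 713, 693 and 685 were at 77.8 to 100% in ISCs and at 100% in differentiated cells. The level of the bin thus depends on which of its CpGs were read in each library. Among promoters, Muc5ac was called at P0 (17.2 points higher in differentiated cells, chi-square adjusted p = 0.00471), 1 of 8 against 1.75% of all promoters, and 0 of 8 at P21 against 1.28%. That call shares the library of P0 ISCs with the Muc5ac change in ISCs, and its 3 bins include the bin over the start given above. No mucin body was called between populations at P0 (background 0.963%) or P21 (0.929%), and no last exon at P0 (2.12%) or P21 (1.45%). The body of Muc13 differed by -3.01 points, as P21 differentiated cells minus P21 ISCs (chi-square adjusted p = 2.17e-04), under the limit of 5 points. The difference between populations in the change with age was called in 0 of the 24 mucin regions, against 1.14% of promoters, 1.03% of bodies and 1.29% of last exons. The smallest adjusted p was that of the Muc5ac promoter, at a difference of -16.9 points ± 10.9 (Wald test on binomial variances, adjusted p = 0.101). For the Muc1 last exon the difference was -1.57 points ± 8.61 and for the Muc13 promoter 0.40 points ± 5.77.

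Other genes were read from lists named other mucins, mucus components and enzymes of O-linked sugar chains. The first list gave Muc3, Muc15, Muc16, Muc19, Emcn, Mcam and Cd164, so not every gene on it carries a Muc name. Beside their promoter counts stand 5.03% gains and 4.96% losses over all promoters in ISCs, and 4.34% and 5.52% in differentiated cells. In promoters, 0 of the 7 genes listed as other mucins were called with age in either population. Those of Mcam, at 2.54 to 3.15%, and Cd164, at 0.130 to 0.945%, were too low to fall by more than 5 points. Those of Muc3 and Muc16 were read from 1 bin each. Of 8 mucus components, 1 promoter rose and 1 fell in each population. Clca3, a secreted goblet cell protein, rose by 14.4 points in ISCs (chi-square adjusted p = 0.00154) and by 17.5 points in differentiated cells (chi-square adjusted p = 9.10e-06). Fcgbp, a protein that binds Muc2 in mucus, fell by 6.56 points in ISCs (chi-square adjusted p = 5.71e-04) and by 14.7 points in differentiated cells (chi-square adjusted p = 1.86e-12). Of 10 enzyme promoters, 1 rose in ISCs and 1 fell in differentiated cells. The riser was St6galnac1, a sialyltransferase of mucin sugar chains, by 14.9 points (chi-square adjusted p = 8.62e-05). Of 9 enzyme bodies, 3 fell in ISCs and 2 in differentiated cells, against 4.69% and 5.02% of all bodies, with 0 gains. B3gnt6, which extends the first sugar of the chain, fell by 11.1 and 13.1 points in its body (chi-square adjusted p = 2.23e-05 and 4.21e-14). Of 10 enzyme last exons, 2 fell in ISCs and 1 in differentiated cells, against 4.39% and 5.28% of all last exons. Galnt4, which starts O-linked chains, fell by 9.99 and 7.72 points there (chi-square adjusted p = 3.17e-09 and 5.41e-10). Zg16, a lectin-like mucus protein, fell by 17.5 points in its body in differentiated cells, from 1 bin (chi-square adjusted p = 0.0329), the 1 body called of 8 components. In ISCs the Zg16 body differed by 6.44 points (chi-square adjusted p = 0.395). Of the 7 genes listed as other mucins, 1 body fell in ISCs (Cd164) and 1 rose in differentiated cells (Muc3, against 2.63% of all bodies). Among their last exons 1 rose in each population (against 5.54% and 5.27%). None of 6 component last exons was called with age.

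Over the whole series, deposited calls ran from 1023427645 to 1188114423 a library. Promoters of 7 epithelial markers had medians of 8.45 to 11.8%, those of 6 leukocyte markers 77.7 to 79.1%, those of 3 endothelial markers 67.6 to 72.8% and those of 5 fibroblast and muscle markers 20.3 to 29.1%. Between P0 and P21, 1 of 7 epithelial promoters fell in ISCs and 2 in differentiated cells, against 4.96% and 5.52% of all promoters. Epithelial bodies fell in 3 of 7 genes in ISCs and 4 in differentiated cells, against 4.69% and 5.02% of all bodies, the direction of the mucin losses. In differentiated cells 1 leukocyte promoter fell and 2 fibroblast and muscle promoters rose, and in ISCs 0 of these were called. The part of these shifts in the values of the mucin genes was not tested.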

How the data were processed

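The authors made genomic DNA libraries (EZ DNA Methylation-Direct, 100-bp paired-end Illumina reads) and aligned reads with Bismark and Bowtie to mm9, per the labels; for versions and duplicate removal the sources used here say nothing. The deposited tables hold, per CpG cytosine, a count of all calls, a count of methylated calls and the methylated fraction, which equalled the ratio of the counts at every position. Counts of both strands of a CpG were summed, and positions at no reference CpG (0.469 to 0.860% of autosomal positions) left out. Bins were tested by Fisher's exact test, regions by the Mantel-Haenszel chi-square test and differences between populations by a Wald test, all two-sided with Benjamini-Hochberg adjustment over all autosomal features (Python 3, numpy, scipy), after checks on simulated data. CpG islands were windows of 500 bp with at least 25 CpGs. Beyond 30 called bins, the 3 of each gene with the largest difference were named, with all low runs of 2 or more bins and the 6 other mucus genes with the largest called differences. At start sites only the 250 bases upstream are printed, since transcribed bases follow. In Muc5b, 2 of these bases are untranslated bases of another transcript. Printed bins are given whole and lie in introns. Members, lists and rules were chosen with earlier results of these data known.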

Additional observations from a re-analysis of the deposited data

How the results depend on the processing

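No paired analysis was possible because each group has 1 library and no replicate numbers, and no library could be left out of a comparison of 2. A fit of age and population over the 4 libraries, which would take the populations as replicates of an age, was not run. Filters and thresholds leave the difference of a bin as it is, and called bins were not matched to bins shifted by 100 bp, so only thinned calls and leaving out CpGs over 100 calls could move it. Without CpGs over 100 calls, the bin chr16:32739001-32739200 of Muc4 lost its ISC call with age, at -30.4 points (exact adjusted p = 0.0596). With thinned calls the direction held in 92 of 92 calls of mucin bins, as a draw from the same calls could hardly change it. Of these calls 38 were lost, 12 of 42 in ISCs with age, 20 of 43 in differentiated cells with age, 3 of 4 between populations at P0 and 3 of 3 at P21. Of 121 comparisons of called regions with an alternative, 8 lost the call, and 1 turned direction, the Muc13 promoter in differentiated cells, at 0.244 points within 500 bp of the start. Of 448 region levels under another setting, 158 moved beyond the counting interval. Called mucin bins in ISCs with age numbered 42 of 706 (5.95%, against 2.55% of all bins), 24 of the 268 bins with at least 4 CpGs (8.96% against 4.16%), 19 with more than 30 points (2.69% against 1.22%) and 111 at 15 points without a test (15.7% against 13.5%). In differentiated cells they numbered 43 (6.09% against 2.85%), and in that order 24 of 268 (8.96% against 4.05%), 15 (2.12% against 1.06%) and 96 (13.6% against 12.0%), and 25 with thinned calls (3.54% against 1.24%). Between populations at P0 they numbered 4 (0.567% against 0.508%), 1 with more than 30 points, 1 with thinned calls and 49 without a test (6.94% against 10.6%). At P21 they numbered 3 (0.425% against 0.182%), 0 of 484 bins with at least 40 calls, 0 with thinned calls and 57 without a test (8.07% against 9.47%). With pooled calls, 4 of the 24 mucin regions were called between populations at P0 and 1 at P21. In the main setting only the Muc5ac promoter was called at P0, and no region at P21. With no minimum difference 2 regions were called at P21, and 13 in ISCs with age. Shares over all genes were not taken under these settings, so these counts have no background beside them. Colonic minus gastric promoters was -31.3 points (pooled calls) and -30.7 points (without Muc5b) in P0 differentiated cells. In P21 differentiated cells it was -28.6 points with 1 CpG and -36.9 points without Muc5b. Within 500 bp it was -13.2, -23.6, -14.3 and -23.3 points in P0 ISCs, P0 differentiated cells, P21 ISCs and P21 differentiated cells. Mucin bins low in all 4 libraries numbered 67 with the limit at 50%, against 42 at 30%, and the share of all bins below 50% was not taken. The causes of these shifts were not tested. Bins under 10 calls, and 58.0% of the Muc2 window, were not measured.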
